A study of Homo sapiens with 12 samples.

Results

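The cap'n'collar factor NRF2, its inhibitor KEAP1 and 8 genes of the glutathione, thioredoxin, quinone and heme defence were followed in MIAPaCa2 cells. The 10 genes, NFE2L2 (which encodes NRF2), KEAP1, GCLC, GCLM, GSR, TXNRD1, SRXN1, NQO1, HMOX1 and OSGIN1, were chosen by name as members of this pathway, out of 26475 gene symbols counted. All 10 were among the 14582 genes tested, and none of their values was low, with between 877 and 95153 expected counts per library.

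MIAPaCa2 is an established pancreatic ductal adenocarcinoma (PDAC) line, and oxamate is a pyruvate analog that competes for lactate dehydrogenase A (LDHA). The 12 libraries, 3 per condition, cover 4 conditions: parental cells untreated or given the LDHA inhibitor, and oxamate-resistant cells untreated or given it, the untreated arms being the vehicle arms in the methods of the study. The resistant cells were polyclonal survivors of the parental line after 10 mM oxamate for 4 weeks, and all cells were grown in the same DMEM medium with serum. How long the cells were exposed to oxamate before RNA was taken is not given in the sources used here, nor whether the replicates were separate cultures, so p-values measure only the spread between these libraries. Levels are counts scaled to library size (CPM) with TMM factors. Statements that groups did or did not overlap describe these libraries only. With 3 against 3 an exact permutation test cannot give a p under 0.10, and the share of all genes without overlap was not counted. Changes are given as log2 fold changes (log2FC) with standard errors (SE), and a gene rose or fell if its p, from the quasi-likelihood test of edgeR and adjusted over all 14582 genes after Benjamini and Hochberg, was under 0.05.

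In unstressed cells KEAP1 binds NRF2 and hands it to a CUL3 ubiquitin ligase for destruction. Electrophiles and oxidants modify cysteines of KEAP1, NRF2 then accumulates, pairs with a small MAF protein and binds antioxidant response elements (AREs) near genes for glutathione synthesis, thiol reduction and detoxification. Because NRF2 is controlled mainly as a protein, the level of its mRNA is no measure of its activity.

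The ARE core, the only motif searched, was read as TGACNNNGC on both strands in the RefSeq promoter windows (GRCh38.p14, 250 bases before to 50 after a start site) of the 8 genes that had one. HMOX1 and GSR had no window. GCLM, TXNRD1 and KEAP1 held a match, in 4 of 11 windows (36.4%) and 3 of 8 genes (37.5%), beside 13.3% of all 35116 windows and 16.1% of all 27305 genes with a window. The sites are shown because this core is the sequence that NRF2 and its MAF partner are known to recognise, and they are written 5′ to 3′ on the strand of the gene with the 9 letters of the core in capitals, where a core that begins with GC lies on the opposite strand. A match is a description of the letters, and binding was not measured.
GCLM, chr1:93909446-93909474, minus strand, core 34 bases upstream of the start: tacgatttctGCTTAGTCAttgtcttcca
TXNRD1, chr12:104215670-104215698, plus strand, core 99 bases upstream: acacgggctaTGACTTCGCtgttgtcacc
TXNRD1, chr12:104215761-104215789, plus strand, core 8 bases upstream: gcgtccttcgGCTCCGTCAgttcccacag
TXNRD1, chr12:104286920-104286948, plus strand, core 102 bases upstream of a second start: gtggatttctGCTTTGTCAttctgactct
KEAP1, chr19:10502807-10502835, minus strand, core 54 bases upstream: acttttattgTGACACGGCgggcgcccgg
KEAP1, chr19:10502784-10502812, minus strand, core 31 bases upstream: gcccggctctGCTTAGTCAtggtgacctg
The core letters of GCLM and of the second KEAP1 site were identical. The windows of NFE2L2, GCLC, NQO1, OSGIN1 and SRXN1, and the other window of KEAP1, held no match to these letters. Sequence outside the windows was not searched, so a gene without a match here may have one further away.

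Depth lay between 46698729 and 114222169 expected counts per library, and every parental library was deeper than every resistant one. LDHA, the target of the drug, rose with oxamate in parental cells (log2FC 0.62) and in resistant cells (0.34). Of 6 epithelial and mesenchymal markers, KRT8, KRT18, KRT19 and VIM were abundant. EPCAM and CDH1 were too low to test, CDH1 being at 0 in oxamate-treated parental cells. The sum of these 6 markers was lower in resistant (7730 to 8160 CPM) than in parental libraries (12700 to 13800 CPM). Most of it was VIM, which averaged 9445 CPM in vehicle-treated parental and 6282 CPM in vehicle-treated resistant cells. The part of this sum in the differences between the lines was not tested. The 10 markers of leukocytes, vessels, fibroblasts, islets and acini summed to between 12.3 and 13 CPM in vehicle-treated and 16.9 and 17.6 CPM in oxamate-treated parental libraries. In resistant libraries they summed to between 11.3 and 12.9 CPM. Of the 4 that could be tested, 3 rose with oxamate in parental cells (CD14, COL1A1 and ACTA2), where 28.3% of all genes rose. In resistant cells 2 of the 4 rose, where 9.01% of all genes rose. INS and PRSS1 were at 0 in every library, and the part of these markers in the results was not tested. The nuclear-retained RNAs MALAT1, NEAT1, KCNQ1OT1 and MIAT summed to between 321 and 357 CPM in vehicle-treated parental cells, 544 and 1190 after oxamate, 533 and 1110 in vehicle-treated resistant cells and 1080 and 1410 after oxamate, and the highest sums of the middle groups came from parental oxamate replicate 3 and resistant vehicle replicate 3. Results that moved without those 2 libraries, or with MALAT1 as a covariate, are given below. MALAT1 itself differed between the conditions, so the covariate can also take up part of a difference between them. Why a call was lost with it therefore cannot be told.

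Per kilobase of exon, the members spanned a wide range of levels in vehicle-treated parental cells. NQO1 was the most abundant at 285 ± 2.07 CPM per kb (SD, n = 3), followed by TXNRD1 at 120.4 ± 1.45 and GCLM at 56.6 ± 3.15. SRXN1 (34.5 ± 0.724), HMOX1 (29.3 ± 0.662), GSR (25.1 ± 0.0892) and OSGIN1 (22.3 ± 0.578) came next. NFE2L2 (15.9 ± 0.329) and KEAP1 (15.2 ± 0.726) were neighbours, and GCLC was the lowest at 3.54 ± 0.0727 CPM per kb. Lengths were those of the exons of all basic transcripts together, which may exceed those of the transcripts expressed. The order of genes per kb depends on that choice, whose error the SD does not measure. Before division by length NFE2L2 was at 72.0 and KEAP1 at 47.8 CPM.

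**Figure D1:**
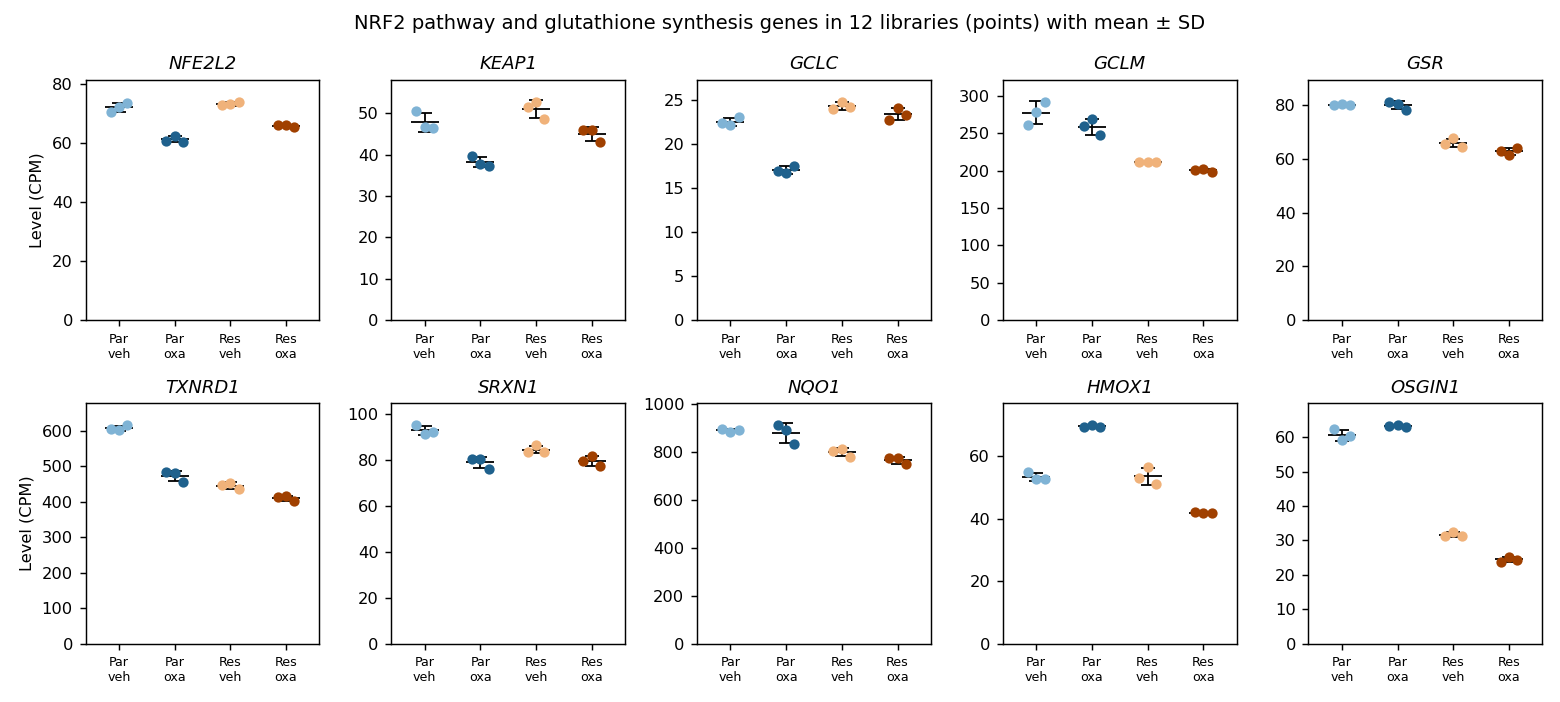
Level of each of the 10 genes in CPM (vertical axes, from 0) in the 3 libraries (points) of parental (Par) and resistant (Res) cells after vehicle (veh) or oxamate (oxa), with the mean (bar) and SD. HMOX1 is highest in oxamate-treated parental cells (69.4 to 70.0 CPM) and lowest in oxamate-treated resistant cells (41.7 to 42.3 CPM), and OSGIN1 is below 33 CPM in all 6 resistant libraries.

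Parental cells were first compared with and without oxamate, which asks how cells that have not met the drug respond to it. Of the 10 genes 6 fell (NFE2L2, KEAP1, GCLC, GCLM, TXNRD1 and SRXN1), HMOX1 rose, and NQO1, GSR and OSGIN1 did not pass the test. Over all genes tested 28.3% rose and 30.4% fell, so that the share of the 10 that rose lay below that of all genes and the share that fell above it. The median log2 fold change of the 10 was -0.17, beside 0.0030 over all genes. None of the 10 reached the threshold used in the study, an unadjusted p under 0.05 with a fold change over 1.5, which 9.88% of all genes reached. Without parental vehicle replicate 1, 2 of the 10 rose in place of 1.

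The genes for NRF2 and its inhibitor fell together in parental cells. NFE2L2 (chr2:177227595-177392697, GRCh38, minus strand) was at 70.5, 72.1 and 73.4 CPM in the 3 vehicle libraries and at 60.7, 62.4 and 60.4 CPM in the 3 oxamate libraries, and the groups did not overlap. Its log2 fold change was -0.23 (SE 0.025, adjusted p = 8.96e-07). KEAP1 (chr19:10486120-10503741, minus strand) was at 50.5, 46.7 and 46.3 CPM after vehicle and 39.7, 37.7 and 37.2 CPM after oxamate, without overlap. KEAP1 fell by 0.33 on the log2 scale (SE 0.042, adjusted p = 6.92e-06). In bulk RNA, a loss of RNA per cell and a smaller share of cells that express a gene cannot be told apart. NFE2L2 shares 489 exon bases with AC019080.1 on the same strand, and 190 with AC079305.1 and 54 with AGPS on the opposite strand. No strand setting is stated, so reads from shared bases on either strand cannot be told apart.

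Of the genes for glutathione synthesis, the catalytic subunit of glutamate-cysteine ligase fell the most. GCLC (chr6:53497341-53616970, minus strand), which encodes that subunit, was at 22.4, 22.2 and 23.1 CPM after vehicle and 17.0, 16.7 and 17.5 CPM after oxamate. All 3 oxamate libraries lay below all 3 vehicle libraries, with a log2FC of -0.40 (SE 0.036, adjusted p = 1.65e-07). GCLM (chr1:93885205-93909456, minus strand) encodes the modifier subunit, which makes the enzyme more efficient and less sensitive to feedback by glutathione. GCLM was at 262, 279 and 292 CPM after vehicle and 259, 269 and 247 CPM after oxamate, and the groups overlapped. The GCLM difference of -0.10 (SE 0.036, adjusted p = 0.0242) was lost without parental vehicle replicate 2 (adjusted p = 0.0658), parental vehicle replicate 3 (0.131) or parental oxamate replicate 3 (0.105), and with MALAT1 as a covariate (0.174) or both libraries rich in nuclear RNA left out (0.0962). GSR (chr8:30678061-30727999, minus strand), glutathione reductase, which returns oxidised glutathione to its thiol form, was at 80.1, 80.6 and 80.0 CPM after vehicle and 81.3, 80.4 and 78.3 CPM after oxamate. The groups overlapped, the log2 fold change of GSR was -0.0047 (95% interval -0.061 to 0.052), and it was 0.0113 without parental oxamate replicate 3.

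The ratio of GCLM to GCLC within a library does not depend on how libraries are scaled, although its size per kb depends on the exon lengths used. Per kb it was 15.2, 16.4 and 16.5 in the vehicle-treated and 19.8, 21.0 and 18.4 in the oxamate-treated parental libraries. The GCLM to GCLC ratio was thus higher after oxamate in all 3 libraries, by 0.30 on the log2 scale. An exact permutation test over the 6 libraries (two-sided) gave p = 0.10, the smallest it can give with 3 against 3. The ratio of NFE2L2 to KEAP1 overlapped between the groups, at 1.05 ± 0.0692 after vehicle and 1.12 ± 0.0445 after oxamate (SD, n = 3 each; exact permutation p = 0.30).

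Both members of the thiol repair group fell in parental cells. TXNRD1 (chr12:104215779-104350305, plus strand), the cytosolic thioredoxin reductase, was at 605, 602 and 616 CPM after vehicle and 484, 480.2 and 457 CPM after oxamate. Every oxamate library was lower, and the log2 fold change was -0.36 (SE 0.026, adjusted p = 1.57e-08). SRXN1 (chr20:646615-653370, minus strand), sulfiredoxin, which restores overoxidised peroxiredoxins, was at 95.2, 91.5 and 92.4 CPM after vehicle and 80.6, 80.4 and 76.2 CPM after oxamate, again without overlap. SRXN1 had a log2FC of -0.24 (SE 0.030, adjusted p = 5.79e-06). It shares 2292 of its 2698 exon bases with AL121758.1 on the same strand, whose reads cannot be told apart from its own.

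With TMM the quinone, heme and growth inhibitor genes did not pass as lower in parental cells, and nor did GSR. HMOX1 (chr22:35380361-35394214, plus strand), heme oxygenase 1, which opens the heme ring to biliverdin, carbon monoxide and iron, was at 54.9, 52.8 and 52.7 CPM after vehicle and 69.6, 70.0 and 69.4 CPM after oxamate. HMOX1 rose 1.30-fold (log2 0.38, SE 0.032, adjusted p = 7.07e-08), and the 3 oxamate libraries lay within 1 CPM of each other, above every vehicle library. NQO1 (chr16:69706996-69726951, minus strand), a quinone reductase often read as an NRF2 target, was at 897, 884 and 892 CPM after vehicle and 913, 894 and 835 CPM after oxamate. The NQO1 groups overlapped, its log2 fold change was -0.018 (95% interval -0.082 to 0.047), and without parental oxamate replicate 3, its lowest library, it was 0.0192. OSGIN1 (chr16:83948282-83966332, plus strand), oxidative stress induced growth inhibitor 1, was at 62.3, 59.2 and 60.4 CPM after vehicle and 63.4, 63.5 and 62.9 CPM after oxamate. Its oxamate libraries were all higher, but the log2FC of 0.061 missed the threshold (adjusted p = 0.0786), passed it without parental vehicle replicate 1 (adjusted p = 0.0293), and was -0.0133 with scaling by library size alone. NQO1 shares 575 exon bases with AC092115.2 on the opposite strand and OSGIN1 264 with AC009119.2 on the same strand.

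In resistant cells the same comparison asks how cells that had survived the drug differ with and without it. How long the vehicle arm had been free of oxamate is not given in the sources used here. An effect of renewed oxamate and one of its withdrawal therefore cannot be told apart. NFE2L2, KEAP1, TXNRD1, HMOX1 and OSGIN1 fell, none of the 10 rose, and GCLC, GCLM, GSR, SRXN1 and NQO1 did not pass the test. Over all genes 9.01% rose and 12.5% fell, and the median log2 fold change was -0.10 for the 10 and -2.06e-05 for all genes. None of the 10 reached the study's threshold, which 2.5% of all genes reached. Deviations of same-numbered resistant libraries correlated at 0.108, 0.219 and 0.436, the last for replicate 3, whose vehicle library was rich in nuclear RNA. No source used here states that the number pairs them, so fits with a replicate block rest on an assumption. Such a block gave 6 lower members in the fit of 12 libraries, with SRXN1 added (adjusted p = 0.0322). It gave 8 in a fit of the 6 resistant libraries, where GCLM (0.00768) and NQO1 (0.00837) were lower as well.

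HMOX1 and OSGIN1 had the largest falls of the 10 in resistant cells. HMOX1 was at 53.1, 56.6 and 51.3 CPM after vehicle and 42.3, 41.7 and 41.9 CPM after oxamate, with every oxamate library below every vehicle library. Its log2 fold change was -0.36 (SE 0.034, adjusted p = 4.52e-06), opposite in sign to that in parental cells. OSGIN1 was at 31.2, 32.5 and 31.3 CPM after vehicle and 23.9, 25.3 and 24.4 CPM after oxamate, also without overlap. OSGIN1 had a log2FC of -0.37 (SE 0.033, adjusted p = 2.03e-06).

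Smaller falls were seen for the NRF2 gene, its inhibitor and thioredoxin reductase. NFE2L2 was at 72.6, 73.1 and 74.0 CPM after vehicle and 65.9, 65.9 and 65.2 CPM after oxamate (log2FC -0.16, adjusted p = 0.000592). KEAP1 was at 51.4, 52.8 and 48.6 CPM and 45.9, 46.0 and 43.0 CPM (log2FC -0.18, adjusted p = 0.00809). TXNRD1 was at 447, 454 and 436 CPM and 412, 416 and 403 CPM (log2FC -0.12, adjusted p = 0.00551). These 3 genes did not overlap between vehicle and oxamate. In the same libraries MALAT1 was at 273, 244 and 597 CPM after vehicle and 577, 609 and 742 CPM after oxamate. With log2 MALAT1 as a covariate 3 of the 5 calls remained, those of NFE2L2, HMOX1 and OSGIN1, while KEAP1 (adjusted p = 0.176) and TXNRD1 (0.0818) no longer passed. MALAT1 was itself higher on average after oxamate, so this fit may also remove part of the oxamate response.

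The genes for glutathione synthesis and recycling lay close to their vehicle levels in resistant cells. GCLC was at 24.0, 24.9 and 24.2 CPM after vehicle and 22.8, 24.2 and 23.4 CPM after oxamate, with overlap, and its log2 fold change was -0.056 (95% interval -0.13 to 0.021). GCLM was at 212, 211 and 212 CPM and 200.4, 202 and 198 CPM, a difference of -0.078 (adjusted p = 0.142). GSR was at 65.7, 67.7 and 64.5 CPM and 62.9, 61.5 and 64.2 CPM, a difference of -0.069 (adjusted p = 0.0886). For GCLM and GSR the oxamate libraries were all lower, but the differences missed the threshold. How many of all genes were separated in this way was not counted. The GCLM to GCLC ratio per kb was 11.5, 11.0 and 11.4 after vehicle and 11.5, 10.9 and 11.0 after oxamate, and the groups overlapped (exact permutation p = 0.40).

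SRXN1 was at 83.8, 86.5 and 83.7 CPM after vehicle and 79.7, 82.0 and 77.7 CPM after oxamate in resistant cells. All oxamate libraries were lower, and its difference of -0.086 (adjusted p = 0.056) passed the threshold without parental vehicle replicate 1 (0.0465), parental oxamate replicate 3 (0.0274) or resistant oxamate replicate 2 (0.0455). NQO1 was at 807, 813 and 779.9 CPM and 774, 774 and 749.6 CPM, a difference of -0.063 (adjusted p = 0.152). The NQO1 groups did not overlap, and the difference was 0.0047 with MALAT1 as a covariate. Without the 2 libraries rich in nuclear RNA, NQO1 (adjusted p = 0.0125), SRXN1 (0.0265) and GSR (0.036) passed as well, which gave 8 lower members.

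**Figure D2:**
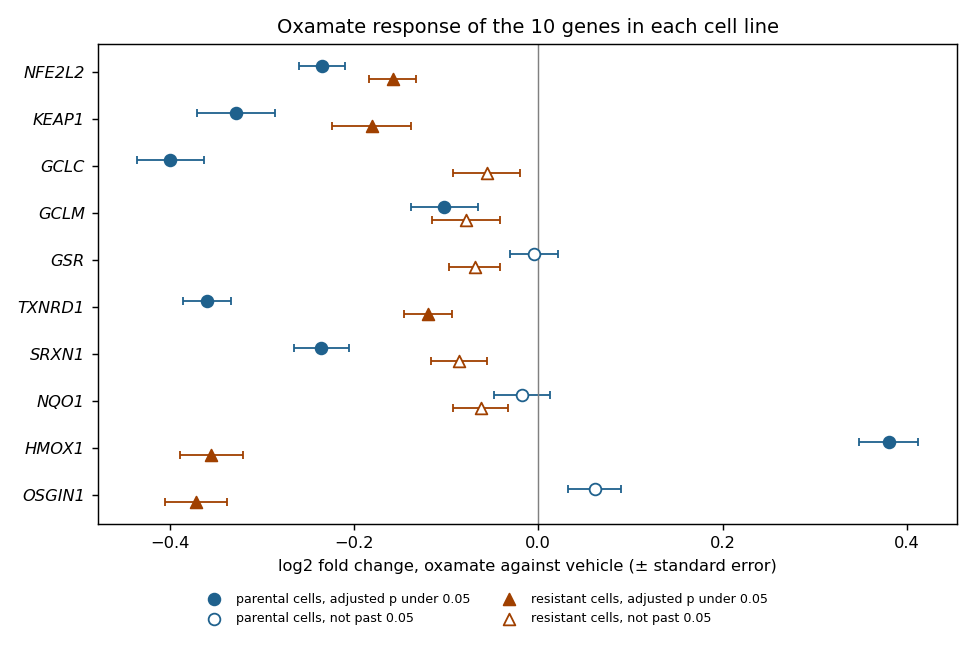
The log2 fold change with oxamate (horizontal axis, with its standard error) of each gene in parental cells (circles) and resistant cells (triangles), filled where the adjusted p was under 0.05. HMOX1 lies at 0.38 in parental and -0.36 in resistant cells, and GCLC at -0.40 and -0.056.

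The responses of the lines were then set against each other by testing their difference within the same model, taken as resistant minus parental. The difference passed for 5 of the 10 genes, negative for HMOX1 and OSGIN1 and positive for GCLC, TXNRD1 and SRXN1. Over all genes 22.7% passed with a positive and 21.4% with a negative difference, shares near those of the 10, and the median was 0.050 for the 10 and -0.0072 for all genes. Library size alone moved the median of all genes by 0.105 and gave 6 of the 10 a positive difference that passed. HMOX1 had the largest difference at -0.74 (SE 0.047, adjusted p = 1.32e-08), having risen in parental and fallen in resistant cells, and HMOX1 alone of the 10 was past the study's threshold, which 8.48% of all genes passed. The difference of OSGIN1 was -0.43 (SE 0.044, adjusted p = 1.35e-06). OSGIN1 fell in resistant cells and its change in parental cells was positive but did not pass the test.

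The 3 positive differences that passed belonged to genes whose fall in parental cells was smaller in resistant cells. GCLC differed by 0.34 (SE 0.051, adjusted p = 6.08e-05), TXNRD1 by 0.24 (0.037, 8.74e-05) and SRXN1 by 0.15 (0.043, 0.00968). For NFE2L2 the difference was 0.077 (95% interval 0.00096 to 0.15, adjusted p = 0.0939, and 0.0429 without parental vehicle replicate 1). KEAP1 differed by 0.15 (adjusted p = 0.0597), and it passed without parental vehicle replicate 3 (0.0443), parental oxamate replicate 1 (0.0361), resistant vehicle replicate 2 (0.0401) or resistant oxamate replicate 3 (0.0311), and with the replicate block (0.0165). NQO1 (-0.14 to 0.046), GCLM (-0.086 to 0.13) and GSR (-0.15 to 0.018) had 95% intervals that included 0, and those of NQO1 and GSR changed sign with scaling by library size alone. Without the 2 libraries rich in nuclear RNA the NQO1 difference passed, at -0.10 (adjusted p = 0.0158). The GCLM difference was -0.0158 without parental vehicle replicate 3 and -0.0092 without parental oxamate replicate 3.

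Resistant and parental cells were next compared under vehicle, which asks how the lines differ without the drug. GCLM, GSR, TXNRD1, SRXN1, NQO1 and OSGIN1 were lower in resistant cells (SRXN1 and NQO1 were higher with library size alone), GCLC was higher, and NFE2L2, KEAP1 and HMOX1 did not pass. Over all genes 38.4% were higher and 37.3% lower, and the median log2 fold change was -0.15 for the 10 and 0.025 for all genes. When libraries were scaled by their size alone, without TMM, the median of all genes moved by 0.22, 8540 genes were higher and 2769 lower in place of 5602 and 5436, and 6 of the 10 were higher and 4 lower. Directions between the lines are therefore read against the median of all genes. Without parental vehicle replicate 1 or resistant vehicle replicate 3, 2 members were higher in place of 1.

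OSGIN1 had the largest difference between the lines among the 10, and it alone passed the study's threshold, which 23.4% of all genes passed. From 62.3, 59.2 and 60.4 CPM in the parental libraries it was at 31.2, 32.5 and 31.3 CPM in the resistant libraries, a log2FC of -0.94 (SE 0.030, adjusted p = 2.67e-13). The OSGIN1 difference was -0.72 with library size alone. TXNRD1 averaged 608 ± 7.31 CPM in parental and 446 ± 9.03 CPM in resistant libraries (SD, n = 3 each), with a log2FC of -0.45 (adjusted p = 3.29e-10) that was -0.23 with library size alone. Neither gene overlapped between the lines.

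GCLM and GCLC, the subunits of glutamate-cysteine ligase, differed in opposite directions between the lines. GCLM stood at 278 ± 15.4 CPM in parental but 211 ± 0.396 CPM in resistant cells (log2FC -0.39, SE 0.036, adjusted p = 7.02e-08), and -0.17 with library size alone. GCLC was at 22.6 ± 0.464 and 24.4 ± 0.441 CPM (log2FC 0.11, adjusted p = 0.00901), 0.33 with library size alone, and its adjusted p was 0.0506 with MALAT1 as a covariate. The GCLM to GCLC ratio per kb, free of the scaling, was 16 ± 0.724 in parental and 11.3 ± 0.223 in resistant cells (SD, n = 3 each). Every resistant library had the lower ratio, with a log2 difference of -0.50 (exact permutation p = 0.10, the smallest possible). GSR was lower in resistant cells, at 65.9 ± 1.62 against 80.2 ± 0.285 CPM (log2FC -0.28, adjusted p = 9.29e-08, and -0.064 with library size alone).

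NQO1 and SRXN1 differed between the lines by less, and the direction of both turned with library size alone. NQO1 was at 800 ± 17.6 CPM in resistant and 891 ± 6.46 CPM in parental cells, a log2FC of -0.16 (adjusted p = 0.000218) with TMM and 0.063 with library size alone. SRXN1 was at 84.7 ± 1.56 and 93.0 ± 1.95 CPM, a log2FC of -0.14 (adjusted p = 0.000626) with TMM and 0.083 with library size alone. These values lay below the median of all genes with TMM. Library size alone moves all genes by about the same amount, so it is no second check of that order.

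The regulators did not pass the test between the vehicle-treated lines. NFE2L2 stood at 72.0 ± 1.49 CPM in parental but 73.2 ± 0.657 CPM in resistant cells, with a 95% interval of the log2FC of -0.027 to 0.078. KEAP1 was at 47.8 ± 2.29 and 50.9 ± 2.14 CPM (log2FC 0.089, adjusted p = 0.0637), and it passed without parental vehicle replicate 1 (0.0105) or resistant vehicle replicate 3 (0.02), and with the replicate block (0.0149). The ratio of NFE2L2 to KEAP1 per kb, 1.05 ± 0.0692 and 1.00 ± 0.0501, overlapped between the lines (exact permutation p = 0.30). HMOX1 was at 53.5 ± 1.21 and 53.7 ± 2.72 CPM, with an interval of -0.065 to 0.074 and an estimate whose sign turned without parental vehicle replicate 2 (-0.0030), parental vehicle replicate 3 (-0.0065) or resistant vehicle replicate 2 (-0.0351).

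**Figure D3:**
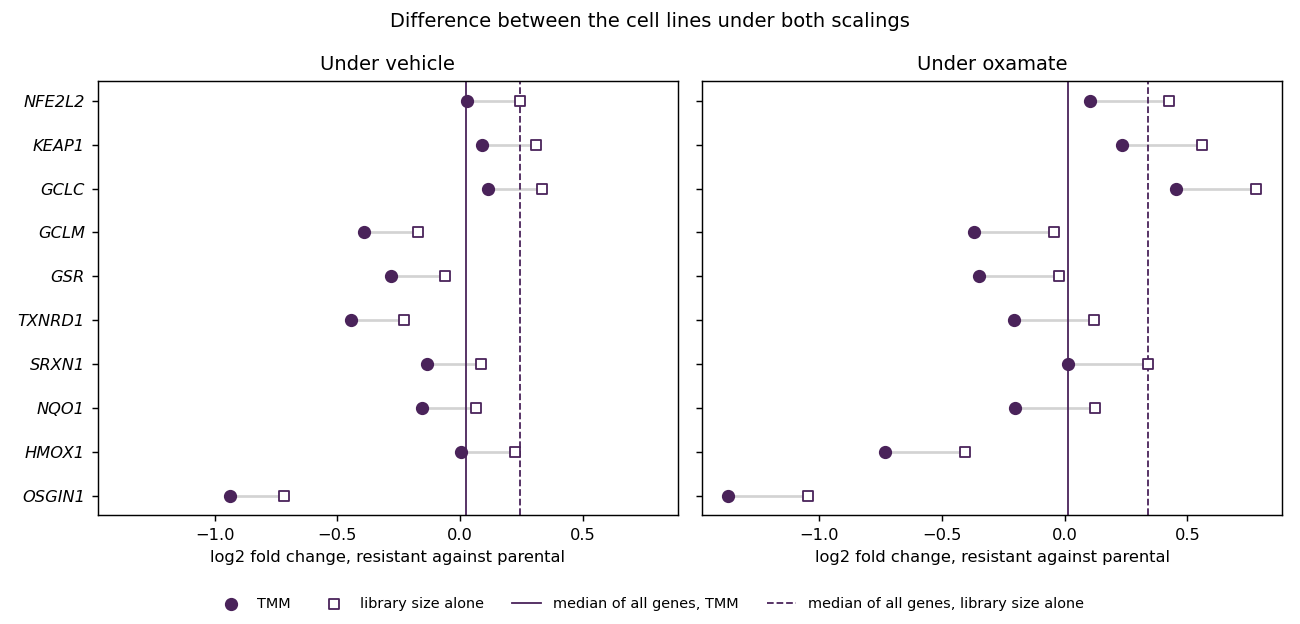
The log2 fold change of resistant against parental cells (horizontal axes) under vehicle (left) and oxamate (right), with TMM (filled circles) and with library size alone (open squares). The vertical lines give the median of all genes, which moves by 0.22 under vehicle and 0.32 under oxamate. Every gene moves by about the same amount, so the order of the 10, with OSGIN1 lowest, hardly depends on the scaling. NQO1 in both panels, SRXN1 under vehicle and TXNRD1 under oxamate change sign between the scalings.

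The lines were then compared under oxamate. HMOX1, OSGIN1, GCLM, GSR, TXNRD1 and NQO1 were lower (the last 2 were higher with library size alone) and GCLC, KEAP1 and NFE2L2 higher in resistant cells, and SRXN1 did not pass. Over all genes 40.6% were higher and 39.7% lower, and the median log2 fold change was -0.20 for the 10 and 0.015 for all genes. Library size alone moved the median of all genes by 0.32 and gave 9133 higher and 2819 lower genes in place of 5923 and 5785, and 6 of the 10 were then higher and 2 lower. OSGIN1 and HMOX1 passed the study's threshold, as did 34.3% of all genes. This comparison and those above share libraries, so their results are not independent.

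OSGIN1 stood at 63.3 ± 0.277 CPM in parental but 24.5 ± 0.718 CPM in resistant cells under oxamate (SD, n = 3 each), a log2FC of -1.37 (SE 0.032, adjusted p = 2.95e-15), and -1.05 with library size alone. HMOX1 was at 69.6 ± 0.294 and 42 ± 0.277 CPM, a log2FC of -0.73 (SE 0.034, adjusted p = 7.62e-12), and -0.41 with library size alone. The order of HMOX1 over the conditions was oxamate-treated parental cells, then the vehicle-treated lines, whose difference did not pass the test, then oxamate-treated resistant cells. For OSGIN1 the parental groups did not differ beyond the threshold and both lay above the resistant groups, of which the oxamate-treated one was the lower.

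GCLC was higher in oxamate-treated resistant cells, at 23.4 ± 0.694 against 17.1 ± 0.425 CPM (log2FC 0.46, SE 0.038, adjusted p = 1.02e-08), and 0.78 with library size alone. GCLM was lower, at 200.1 ± 2.38 against 259 ± 10.9 CPM (log2FC -0.37, adjusted p = 1.06e-07), a call lost with library size alone (-0.044, adjusted p = 0.259). Together they gave a GCLM to GCLC ratio per kb of 19.7 ± 1.31 in parental and 11.1 ± 0.294 in resistant cells, without overlap (log2 difference -0.83, exact permutation p = 0.10). GSR was at 62.9 ± 1.36 against 80.0 ± 1.57 CPM (log2FC -0.35, adjusted p = 6.22e-09), also lost with library size alone (-0.022, adjusted p = 0.412).

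KEAP1 (log2FC 0.24, adjusted p = 0.000121) and NFE2L2 (0.10, adjusted p = 0.00171) were higher in oxamate-treated resistant than parental cells, and higher with library size alone too (0.56 and 0.43). The ratio of NFE2L2 to KEAP1 was 1.02 ± 0.0332 in resistant and 1.12 ± 0.0445 in parental cells, without overlap (exact permutation p = 0.10). TXNRD1 (-0.21, adjusted p = 2.26e-06) and NQO1 (-0.20, adjusted p = 1.41e-05) were lower with TMM and higher with library size alone (0.12 and 0.12). Both lay below the median of all genes, an order that the scaling hardly moves. SRXN1 had a difference of 0.013 (95% interval -0.052 to 0.078), which was -0.0175 without parental oxamate replicate 3 and -0.0058 without resistant oxamate replicate 2.

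**Figure D4:**
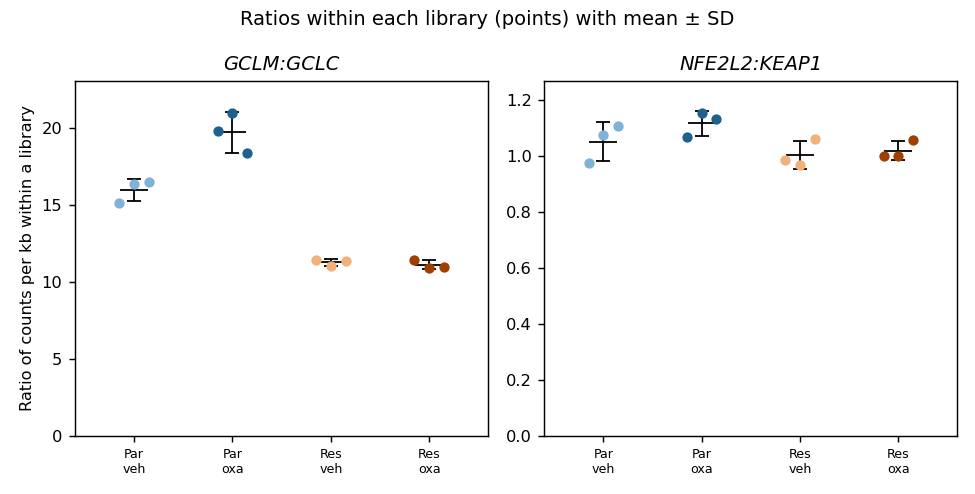
Ratio of GCLM to GCLC (left) and of NFE2L2 to KEAP1 (right), each as counts per kb of one gene over the other within a library (vertical axes, from 0), for the 12 libraries (points) with the mean (bar) and SD. The GCLM to GCLC ratio lies between 15.2 and 21.0 in parental and between 10.9 and 11.5 in resistant libraries.

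OSGIN1 was the only gene of the 10 whose group means spanned more than 1 log2 unit (1.35, where the others spanned 0.22 to 0.72). F2RL1, a receptor cleaved by proteases, was among the 2 most similar in pattern of 9622 other tested genes that averaged 8 CPM or more, with a root mean square difference of the 4 centred group means of 0.0299 on the log2 scale. F2RL1 was at 46.5 ± 2.43 and 49.0 ± 2.44 CPM in vehicle- and oxamate-treated parental cells and at 23.5 ± 0.426 and 19.3 ± 1.22 CPM in vehicle- and oxamate-treated resistant cells (SD, n = 3 each).

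Around the 10 genes, 102 further genes of the pathway were read in 6 lists, whose medians stand beside those of all genes given above (0.0030 and -2.06e-05 for the responses, 0.025 and 0.015 between the lines). With library size alone the medians of all genes between the lines were 0.24 under vehicle and 0.34 under oxamate. The shares of all genes that passed, against which the counts of the lists are to be read, were 28.3% higher and 30.4% lower for the parental response, 9.01% and 12.5% for the resistant response, 38.4% and 37.3% between the lines under vehicle, 40.6% and 39.7% under oxamate, and 22.7% and 21.4% for the difference of responses. Of the 13 genes that control NRF2 or its binding sites, all tested, 6 rose and 5 fell with oxamate in parental cells, while 0 rose and 7 fell in resistant cells. The medians were -0.017 and -0.090. Between the lines 4 were higher and 9 lower under vehicle (median -0.30, and -0.076 with library size alone) and 5 were higher and 8 lower under oxamate (median -0.38, and -0.057 with library size alone). The difference of responses passed for 10 of the 13, 5 in each direction.

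CUL3, the scaffold of the ligase that KEAP1 serves, had the smallest p of these genes in parental cells. It was at 58.4, 61.1 and 60.7 CPM after vehicle and 43.8, 43.0 and 41.1 CPM after oxamate (log2FC -0.50, adjusted p = 5.26e-09), and its change in resistant cells was 0.020 (adjusted p = 0.691). MAFF, a small MAF partner of NRF2, rose in parental cells from 93.6, 92.2 and 87.0 to 119, 119 and 119 CPM (log2FC 0.38) and fell in resistant cells from 67.9, 68.3 and 62.6 to 48.9, 47.3 and 49.3 CPM (-0.45, adjusted p = 7.96e-07). The other small MAF genes, MAFG and MAFK, singled out after their values were seen, also rose in parental (0.23 and 0.56) and fell in resistant cells (-0.20 and -0.16), with differences of response of -0.84 for MAFF, -0.43 for MAFG and -0.71 for MAFK, each past the threshold. Under oxamate MAFF was lower in resistant than in parental cells (log2FC -1.29, and -0.97 with library size alone). PGAM5, a mitochondrial phosphatase that binds KEAP1, was lower in resistant cells under vehicle (-0.62, and -0.40 with library size alone).

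Of 28 other genes known as NRF2 targets, 26 were tested, AKR1B10 and GPX2 being too low. AKR1C3 was tested on only 1 to 18 counts per library. With oxamate 12 rose and 4 fell in parental cells (median 0.056), and 0 rose and 3 fell in resistant cells (median -0.025). The count of 3 that changed ranged from 2 to 6 with 1 library left out, with 6 without parental oxamate replicate 3 and 5 without resistant vehicle replicate 3, and it was 6 with the replicate block. Between the lines 5 were higher and 15 lower under vehicle (median -0.19), where library size alone gave 10 and 8 (median 0.026). Under oxamate 3 were higher and 18 lower (median -0.24), where library size alone gave 13 and 8 (median 0.089). The difference of responses passed as positive for 2 and as negative for 9.

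EPHX1, microsomal epoxide hydrolase, rose in parental cells from 43.9, 42.1 and 43.3 to 59.3, 56.6 and 56.0 CPM (log2FC 0.41, adjusted p = 6.22e-08), with a change of 0.0016 in resistant cells. FTL, the light chain of ferritin, which has processed pseudogenes that could share its reads, rose in parental cells (0.23) and fell in resistant cells (-0.17, adjusted p = 0.000506), as HMOX1 did. The likeness is limited to these responses. Between the lines under vehicle the log2FC was -0.42 for FTL (-0.20 with library size alone) and 0.0046 for HMOX1. AKR1C1, an aldo-keto reductase with near-identical relatives among which reads may be divided, was at 145, 143 and 148 CPM in the vehicle-treated parental libraries and at 64.9, 67.6 and 63.5 CPM in the resistant ones (log2FC -1.15, -0.93 with library size alone).

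SLC7A11 had the smallest p of these genes between the lines under oxamate, and it was higher in resistant cells. It encodes the cystine carrier of system xc-, which brings in the cysteine source for glutathione, and it is also known as a target of ATF4. It was at 1.89, 2.07 and 2.12 CPM in vehicle-treated and 1.11, 1.01 and 1.42 CPM in oxamate-treated parental cells, and at 13.4, 13.6 and 14.8 and 12.4, 12.4 and 12.0 CPM in resistant cells. SLC7A11 was higher in resistant cells under vehicle (log2FC 2.79, SE 0.079) and under oxamate (3.35, SE 0.093, adjusted p = 2.19e-14), with 3.01 and 3.68 by library size alone. These rest on 53 to 204 counts per parental library.

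Of the 12 genes of glutathione supply and turnover outside the 10, all were tested. GGT5 among them had 0 to 3 counts per parental library and 15 to 34 per resistant library. With oxamate 5 rose and 5 fell in parental cells (median -0.023), and 2 rose and 4 fell in resistant cells (median -0.077). Between the lines 5 were higher and 5 lower under vehicle (median -0.090, 0.13 with library size alone), and 4 were higher and 6 lower under oxamate (median -0.26, 0.069 with library size alone). The difference of responses passed as positive for 1 and as negative for 6.

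CHAC1, which breaks down glutathione by its gamma-glutamyl bond, had the only positive difference among these that passed the test (1.37, SE 0.095, adjusted p = 2.91e-08). It was at 2.62, 2.41 and 2.64 CPM in vehicle-treated and 1.06, 1.18 and 1.13 CPM in oxamate-treated parental cells, and at 11.9, 11.8 and 11.6 and 13.1, 13.3 and 13.7 CPM in resistant cells. The resistant libraries were above every parental library, with log2FC of 2.20 under vehicle and 3.57 under oxamate, 2.42 and 3.90 with library size alone. GGT1, a gamma-glutamyl transferase of the cell surface, rose in parental cells from 87.1, 84.8 and 86.4 to 120.4, 118 and 115 CPM (log2FC 0.45, adjusted p = 8.25e-10) and had a change of 0.022 in resistant cells. SLC3A2, the partner chain of SLC7A11, rose in parental cells (0.16) and fell in resistant cells (-0.41, adjusted p = 7.37e-08), a difference of responses of -0.57 (adjusted p = 2.23e-08).

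Among 24 genes that use glutathione, 23 were tested, GPX7 being too low. GSTM2 was tested on only 1 to 20 counts per library. With oxamate 10 rose and 2 fell in parental cells (median 0.12), and 0 rose and 4 fell in resistant cells (median -0.024), where 0 changed with MALAT1 as a covariate. Between the lines 1 was higher and 17 lower under vehicle (median -0.38) and 1 was higher and 20 lower under oxamate (median -0.53). With library size alone the medians stayed negative, at -0.16 with 4 higher and 15 lower and at -0.21 with 3 higher and 15 lower. The difference of responses passed as positive for 1 and as negative for 7.

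GSTM4, a glutathione S-transferase of the mu class, rose in parental cells (0.28, adjusted p = 2.66e-05) and had a change of -0.0038 in resistant cells. GSTM3, of the same class, was lower in resistant cells under oxamate (-0.82, -0.50 with library size alone), and both carry the limit that mu-class genes are similar in sequence. GPX8, a peroxidase of the endoplasmic reticulum, stood at 51.0, 52.2 and 55.1 CPM in parental but 31.4, 29.5 and 29.9 CPM in resistant cells under vehicle (log2FC -0.80, -0.58 with library size alone). GLRX3, a glutaredoxin that handles iron-sulfur clusters, fell with oxamate in resistant cells (-0.13, adjusted p = 0.00607, and 0.0993 with MALAT1 as a covariate), and its change in parental cells was -0.042.

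All 17 genes of the thioredoxin, peroxiredoxin and superoxide list were tested. With oxamate 7 rose and 2 fell in parental cells (median 0.088), and 2 rose and 2 fell in resistant cells (median -0.032). The 4 calls in resistant cells became 1 without resistant vehicle replicate 1 and 2 when any 1 of the 3 resistant oxamate replicates was left out, and 1 with MALAT1 as a covariate. Between the lines 3 were higher and 12 lower under vehicle (median -0.31), and 4 were higher and 12 lower under oxamate (median -0.40). Library size alone gave 5 and 8 (median -0.092) and 6 and 7 (median -0.078). The difference of responses passed as positive for 2 and as negative for 7.

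TXNIP, which binds and inhibits thioredoxin, stood at 1359, 1373 and 1428 CPM in parental but 790.3, 775 and 786 CPM in resistant cells under vehicle (log2FC -0.82, -0.60 with library size alone). It rose with oxamate in parental (0.29) and fell in resistant cells (-0.097), and under oxamate it was lower in resistant cells (log2FC -1.21, and -0.88 with library size alone). SOD2, the mitochondrial superoxide dismutase, rose in parental cells from 131, 132 and 133 to 160.4, 163 and 162 CPM (0.29, adjusted p = 2.7e-08) and was higher in resistant cells under vehicle, at 217, 215 and 212 CPM (0.70, 0.92 with library size alone). TXNRD3, a relative of TXNRD1, fell in parental (-0.13) and rose in resistant cells (0.21, adjusted p = 0.00219).

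Of 8 genes of heme and iron handling, 1 rose and 2 fell in parental and 1 rose and 1 fell in resistant cells with oxamate (medians -0.0076 and -0.045). The 2 calls in resistant cells became 1 without parental vehicle replicate 2, parental vehicle replicate 3, resistant vehicle replicate 1 or resistant oxamate replicate 1, and 0 without resistant vehicle replicate 2 or resistant oxamate replicate 2, while 1 was left with MALAT1 as a covariate. Between the lines 2 were higher and 4 lower under vehicle (median -0.080), and 3 were higher and 2 lower under oxamate (median -0.0083). Library size alone gave 5 and 1 (median 0.14) and 6 and 1 (median 0.32). SLC40A1, 1 of the 8 genes, was tested on 1 to 10 counts per library, so its results lie near the floor. The difference of responses passed as positive for 2 and as negative for 0.

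ALAS1, which begins heme synthesis, fell in parental cells (-0.42, adjusted p = 2.92e-09) while HMOX1 rose, and its change in resistant cells was -0.0020. BLVRA, which reduces the biliverdin that heme oxygenase forms, fell in parental (-0.30) and in resistant cells (-0.14, adjusted p = 0.0126). The BLVRA call in resistant cells was lost without resistant vehicle replicate 2 (adjusted p = 0.0717) or resistant oxamate replicate 2 (0.0538), and with MALAT1 as a covariate (0.213). SLC48A1, a heme carrier of endosomes, was lower in resistant cells under vehicle (-0.61) and oxamate (-0.79, adjusted p = 1.79e-09), at -0.39 and -0.47 with library size alone.

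**Figure D5:**
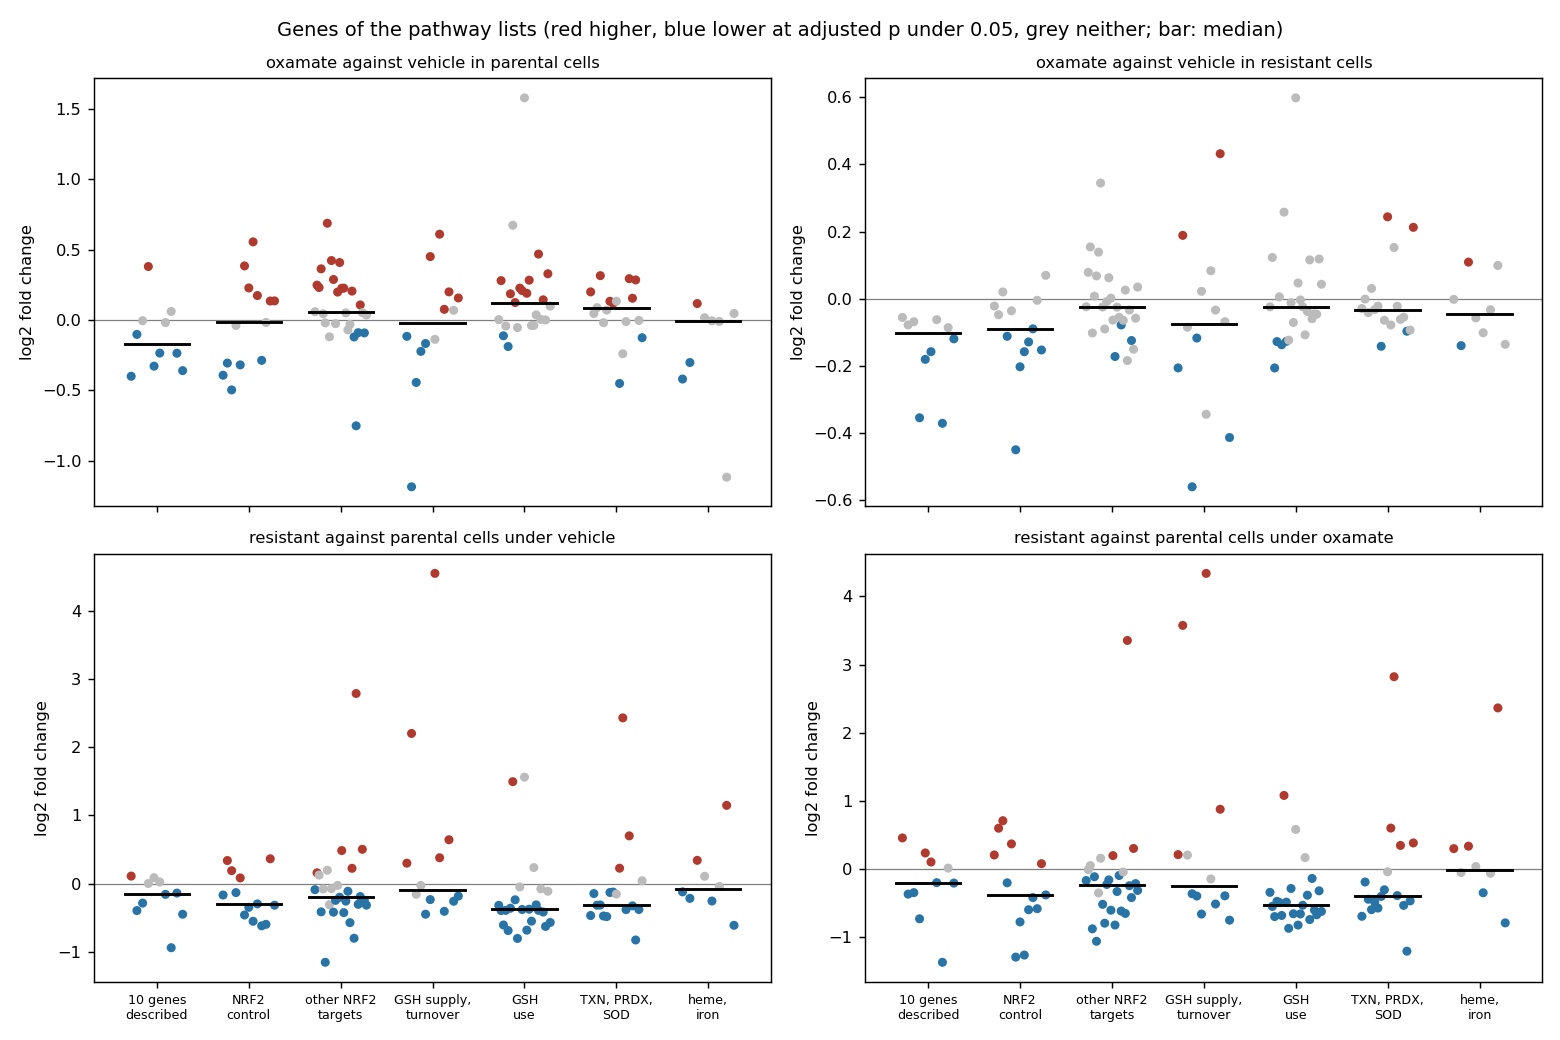
The log2 fold change (vertical axes) of the 10 genes described and of the genes of the 6 lists (GSH, glutathione; TXN, PRDX and SOD, thioredoxin, peroxiredoxin and superoxide), 1 point a gene, in the 4 comparisons, with a vertical scale of its own in each panel. Red and blue points passed the test as higher and lower, and the black bars are medians, which in the glutathione use list run from 0.12 with oxamate in parental cells to -0.53 between the lines under oxamate (-0.21 with library size alone).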

How the data were processed

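RNA of 12 MIAPaCa2 samples, 3 per condition, was sequenced. The authors deposited expected counts per gene symbol, which per the submitters' processing notes came from Bowtie2 2.1.0 and RSEM 1.2.15 on hg38. The methods of the study also name STAR and featureCounts. No strand setting is given in the sources used here. Of the values 11.6% were not whole and were rounded, and those of the 10 genes were whole. Low genes were removed by filterByExpr (14582 of 26475 symbols kept), libraries were scaled by TMM, and the 12 samples were fitted together with edgeR 4.0.16 in R 4.3.3. Both oxamate responses, both line differences and the difference of the responses were tested (adjusted p under 0.05). The study called a gene changed at an unadjusted p under 0.05 where the fold change exceeded 1.5.

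The members and lists were chosen with earlier results of these data known. Of each list the text names the gene with the smallest p in each of the 4 pairwise comparisons, and for members spanning over 1 log2 unit the 2 most alike genes, of which 1 is not reported here. Gene positions and exon lengths are from GENCODE 29 (basic set). The deviations of same-numbered samples from their group means correlated at 0.108, 0.219 and 0.436 between the resistant groups. They correlated under 0.1 for at least 1 number in each other comparison. A pairing by number is stated in no source used here, and the replicate block assumes it. Further fits used 14 other settings (with limma 3.58.1 and DESeq2 1.42.0 among the tools) and 2 added after seeing the data. Scripts were tested on simulated counts. Depth limits precision through counting error, and other effects of depth, which differed between the lines, were not tested. No member was at or near 3 counts. Of the list genes that were tested, SLC40A1, GGT5, AKR1C3 and GSTM2 were in some libraries.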

Additional observations from a re-analysis of the deposited data

Results flagged for a closer look

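For 5 of the 10 genes the oxamate response differed between parental and resistant cells when the difference itself was tested (resistant minus parental, edgeR's quasi-likelihood test, Benjamini-Hochberg adjustment). Over all genes 22.7% passed with a positive and 21.4% with a negative difference, so that 5 of 10 is near the share of all genes. HMOX1 had a difference of -0.74 on the log2 scale and OSGIN1 one of -0.43. GCLC had a difference of 0.34, TXNRD1 one of 0.24 and SRXN1 one of 0.15. HMOX1 was higher in every oxamate-treated than in every vehicle-treated parental library, and lower in every oxamate-treated than in every vehicle-treated resistant library. The 5 differences kept their sign in each of the 12 fits that left out 1 library. They are listed because they passed in these same libraries, so the kept sign is no independent support.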

How the results depend on the processing

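The 50 results on the 10 genes (5 comparisons each) gave 1300 alternative values, of which 1159 kept their direction and side of the threshold, 70 lost and 46 gained a call and 25 turned in sign. The fits with RLE factors, limma-voom, DESeq2 and unrounded counts changed no call among 79 results on single genes, which are the 10 genes and LDHA in every comparison and each list gene in the comparison it was named for. The cause of the changes below was not tested.

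Scaling by library size alone turned OSGIN1 with oxamate in parental cells (-0.0133), NQO1 (0.0634), SRXN1 (0.0827) and LDHA (0.0577) between the lines under vehicle, NQO1 (0.12) and TXNRD1 (0.12) between them under oxamate, and NQO1 (0.0614) and GSR (0.0418) in the difference of responses. It gave 6 higher members under vehicle and 6 higher and 2 lower under oxamate. The difference of responses then passed as positive for 6 members, and 4 NRF2 control genes changed in resistant cells. With MALAT1 as a covariate NQO1 was 0.0496 and GSR 0.0294 in parental cells and NQO1 was 0.0047 in resistant cells, where 3 members fell and 0 glutathione use, 1 thioredoxin and 1 heme gene changed. Upper-quartile factors gave GSR 0.0085 in parental cells, with 2 members that rose and 4 higher under vehicle. A mean of at least 25 counts gave GSR 0.0013, with 2 and 2. No filter, RLE factors and DESeq2 each gave 1 heme gene in resistant cells, and limma-voom 5 other NRF2 targets. Fitting only the 6 samples compared gave 6 such targets there and 2 higher members under vehicle.

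Without both libraries rich in nuclear RNA, chosen after seeing the data, NQO1 (0.0193) and GSR (0.0114) turned in parental cells, SRXN1 (-0.0166) between the lines under oxamate and GCLM (-0.0086) in the difference of responses. In resistant cells 8 members fell and 9 other targets changed, and 2 members were higher under vehicle. Pairing by replicate number, as a block over 12 samples, gave 6 changed other targets in resistant cells and 2 higher members under vehicle. As a block in the 6 resistant samples, also chosen after seeing the data, it gave 8 lower members and 9 other targets. The block of 12 samples also gained KEAP1 under vehicle (adjusted p = 0.0149) and in the difference of responses (0.0165), and lost no call of the 10 genes.

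Leaving out 1 library gave 1 to 2 members that rose in parental cells and 1 to 2 that were higher in resistant cells under vehicle. In resistant cells it gave 2 to 6 other targets, 1 to 5 thioredoxin and 0 to 3 heme genes changed by oxamate. Single genes that turned ranged from -0.0436 to 0.0192 (NQO1) and -0.0161 to 0.0113 (GSR) in parental cells, -0.0158 to 0.065 (GCLM) in the difference of responses, -0.0175 to 0.0334 (SRXN1) under oxamate and -0.0351 to 0.0376 (HMOX1) under vehicle, and none of these 5 results had passed the test.

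A stricter threshold removed most calls. Tested against a fold change of 1.5, 0 members rose and 0 fell in parental cells, 0 fell in resistant cells, 0 were higher and 1 lower under vehicle, 0 and 2 under oxamate, and 0 and 1 had a positive and negative difference. In the order NRF2 control, other targets, supply, use, thioredoxin and heme, the genes changed were 0, 0, 1, 0, 0 and 0 in parental cells, 0 of each list in resistant cells, 0, 3, 2, 4, 3 and 0 under vehicle, 4, 6, 5, 7, 3 and 2 under oxamate and 1, 0, 1, 0, 0 and 0 in the difference. At the study's threshold these were 0, 2, 2, 1, 0 and 0, then 0 of each, then 2, 3, 3, 6, 3 and 2, then 6, 8, 5, 11, 5 and 2, and 2, 0, 1, 0, 0 and 0, with 0 higher members in any comparison and 0, 0, 1, 2 and 1 lower.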
